A study of Homo sapiens with 9 samples.

Results

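The transcriptional co-activator gene YAP1 and 9 other genes of the Hippo pathway, WWTR1, TEAD1, TEAD2, TEAD3, TEAD4, LATS1, LATS2, CTGF and CYR61, were followed in NT2 cells during the first days of retinoic acid treatment. They were taken as all non-control probes whose gene name in the array files is one of these 10 symbols, out of 34623 distinct gene names. That gave 11 probes, 1 for each gene except LATS1, which had 2. The group was chosen by the lower YAP1 signal with paraoxon than in control on these same arrays, so the values of YAP1 are given as a description without a test. The question was whether the YAP target genes CTGF and CYR61, and the partners of YAP1, followed it.

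NT2 is a human embryonal carcinoma line that turns towards neural cells in retinoic acid. All cultures, controls included, received 10 μM retinoic acid for 4 days (96 h). Control cells received no organophosphate (OP), the second group received 1 μM paraoxon and the third 5 μM mipafox, both OPs, with 3 one-colour arrays per treatment lettered A to C. The labels call the replicates biological and the methods call them technical, so that p-values measure only the spread between these arrays, which may be technical. All control arrays and mipafox A were on slide 1. Every paraoxon array was on slide 2, together with mipafox B and C. Signal was well above background at 65.7% to 73.6% of probes, depending on the array.

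The Hippo pathway is a kinase cascade that restrains growth. Its last kinases, LATS1 and LATS2, phosphorylate YAP1 and the related co-activator TAZ, the product of WWTR1, and keep them out of the nucleus. In the nucleus YAP1 and TAZ bind the TEAD1 to TEAD4 DNA-binding factors and switch on genes such as CTGF and CYR61, which encode secreted matrix-associated proteins. LATS2 is itself known as a target, which closes a feedback loop. An array measures mRNA and not phosphorylation or location of YAP1, and in RNA of a whole culture fewer cells of a type and less RNA per cell cannot be told apart.

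The label of the cells was checked first. The pluripotency genes POU5F1 and SOX2, the neural progenitor gene NES and the neuronal tubulin gene TUBB3 were well above background on 9 of 9 arrays, as were 3 of the 4 PAX6 probes. Of the endoderm list, AFP and SOX17 were above background on 1 array each, while FOXA2 and GATA6 were well above it on 9 of 9. In 6 lists of marker genes (embryonal carcinoma, retinoic acid response, neural progenitor, neuron, endoderm, mesoderm and fibroblast-like), 0 probes had an adjusted p under 0.05 with limma in either comparison with control, and 1 of 10 retinoic acid response genes was lower at an unadjusted p under 0.05 with each OP. For mipafox the unadjusted limit was also passed by 1 of 6 neural progenitor genes, lower, and 1 of 7 neuron genes, higher. Over all tested probes 6.02% were lower and 7.31% higher at that limit with paraoxon, and 4% lower and 2.96% higher with mipafox.

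The sequences below are those that carry the comparison. YAP1 was read by the probe A_23_P104762 (hg19, chr11:102100584-102100643, plus strand) and WWTR1 by A_23_P29769 (hg19, chr3:149238593-149238652, minus strand). The TEAD genes are close paralogs, and the probes of TEAD2 (A_23_P119344, hg19, chr19:49845695-49845754, minus strand) and TEAD4 (A_23_P94795, hg19, chr12:3149391-3149555, plus strand) overlap in sequence when laid against each other. Capitals mark the 35 bases where these probes line up, of which 32 are identical (91.4%). The 60 bases of the TEAD4 probe span 165 bases of the genome. Whether one transcript also bound the other's probe was not tested. Exon and UTR annotation on hg19 was not used here.
YAP1 probe: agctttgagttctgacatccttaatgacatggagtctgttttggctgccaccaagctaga
WWTR1 probe: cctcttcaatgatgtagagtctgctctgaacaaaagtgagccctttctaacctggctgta
TEAD2 probe: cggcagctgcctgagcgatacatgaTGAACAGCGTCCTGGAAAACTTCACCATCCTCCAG
TEAD4 probe: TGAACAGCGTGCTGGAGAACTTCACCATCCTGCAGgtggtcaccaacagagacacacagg

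The target genes are reached through TEAD factors, whose known DNA motif holds GGAATG. In RefSeq promoters (GRCh38.p14, 250 bases before to 50 after the start site) this word was searched on both strands, that is as GGAATG or CATTCC. The CTGF promoter (RefSeq symbol CCN2, chr6:131951323-131951622, minus strand) held it 3 times, with first bases at -169, -104 and -95 from the start site. Capitals mark it below. At least 3 copies were found in 0.128% of 35116 promoters and at least 1 in 14.0%. The YAP1 promoter held 1 copy at -162 and the LATS2 promoter 1 copy at 9 bases after the start, and the WWTR1, TEAD2, TEAD3 and LATS1 promoters held none in this window. A match is a description of letters and not a site. The promoters of CYR61, TEAD1 and TEAD4 were not used here.
CTGF promoter: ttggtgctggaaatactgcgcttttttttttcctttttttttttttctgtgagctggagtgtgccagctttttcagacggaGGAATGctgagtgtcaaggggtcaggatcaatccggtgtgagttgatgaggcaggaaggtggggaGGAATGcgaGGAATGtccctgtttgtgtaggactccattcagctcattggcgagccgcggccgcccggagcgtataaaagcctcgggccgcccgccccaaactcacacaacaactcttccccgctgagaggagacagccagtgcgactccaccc

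Levels are given as normalized log2 signal, the log2 of the scanner's processed signal minus the array's 75th percentile, so that 0 lies at that percentile. Levels of different probes are not set against each other. YAP1 read 1.73, 1.42 and 1.30 on control A, B and C. With paraoxon it read 0.30, 0.14 and 0.70 in the same order, and with mipafox 0.97, 0.51 and 0.29. All 6 exposed arrays lay below all 3 control arrays, as held for 3.97% of all tested probes. Before scaling, the processed signal was between 3318 and 3614 in control, between 1332 and 1960 with paraoxon and between 1547 and 1609 with mipafox. The arrays' 75th percentiles also differed. They lay between 1000 and 1438 in control, 818 and 1590 with paraoxon, and 802 (mipafox A) and 1261 with mipafox. The mean difference from control was -1.10 on the log2 scale (SE 0.22) with paraoxon and -0.89 (SE 0.22) with mipafox. Both comparisons use the same 3 control arrays.

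The YAP1 probe was printed 10 times on each array, and the spots of an array agreed closely. Of its 90 spots 8 were marked as outliers by the scanner software and left out. The SD over the kept spots of an array was between 0.036 and 0.0666. The lowest kept control spot read 1.23 and the highest kept exposed spot 1.09, so that 0 of 57 exposed spots reached the control range. Spots of an array are not replicates of a treatment, since they share 1 labelled RNA.

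Paraoxon and control shared no slide, so the YAP1 difference was followed where slides allow. Within slide 1, mipafox A lay 0.51 below the control mean (difference -0.51), and 7.89% of tested probes had a difference as low or lower. Within slide 2, paraoxon differed from mipafox B and C by -0.02. Between the slides, mipafox B and C lay below mipafox A (difference -0.57), although their treatment was the same. With slide as a block in the limma fit, the differences from control were -0.53 with paraoxon and -0.51 with mipafox. These blocked values rest on mipafox A, the only exposed array on the control slide.

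For the other genes the measure was limma's fit over all 9 arrays and 29134 tested probes, with Benjamini-Hochberg adjustment, and calls were made at an adjusted p under 0.05 where the log2 fold change also lay beyond 1. All 11 probes passed the filter on dim probes, the dimmer LATS1 probe (A_33_P3233764) through the control arrays alone. Of the 10 probes other than YAP1, 0 were called for paraoxon against control, where 0% of all tested probes were called. For mipafox against control 0 of 10 were called, again beside 0% of all. At an unadjusted p under 0.05 in either direction the count was 2 of 10 for paraoxon (13.3% of all tested probes) and 1 of 10 for mipafox (6.96%), all of them LATS1 probes. With the fold change limit added, 1 LATS1 probe passed in each (2.19% and 0.844% of all), but not the same one. It was the dimmer probe for paraoxon and the brighter probe for mipafox. For paraoxon against mipafox, whose doses differ, 0 of 10 were called (0% of all). The unadjusted limit was passed by 1, the dimmer LATS1 probe (4.02% of all). Because control alone brought that probe through the filter, its place in the counts against control is a description.

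CTGF had no shift like that of YAP1 over the 9 arrays, though its values were lower with slide as a block, which rests on mipafox A. Its probe (A_23_P19663, hg19, chr6:132270130-132270189) read 0.35, 0.42 and 0.45 in control, 0.12, 0.40 and 0.31 with paraoxon, and -0.17, 0.22 and 1.09 with mipafox. The paraoxon arrays overlapped the control arrays, and the mipafox arrays held both the lowest and the highest value of the 9. The log2 fold change was -0.13 for paraoxon (SE 0.28, 95% interval -0.75 to 0.50, adjusted p = 0.906 in limma) and -0.02 for mipafox (95% interval -0.64 to 0.60, adjusted p = 0.998). The control arrays had an SD of 0.0509 and the mipafox arrays an SD of 0.644. Without mipafox A the mipafox value was 0.25. With slide as a block the CTGF values were -0.95 for paraoxon (adjusted p = 0.613) and -0.57 for mipafox (adjusted p = 0.85), beside -0.53 and -0.51 for YAP1. These blocked values rest on mipafox A, the only exposed array on the control slide and the lowest CTGF array of the 9.

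CYR61 was nearly level over the 9 arrays. Its probe (A_23_P46429, hg19, chr1:86048953-86049012) read 3.08, 3.20 and 3.18 in control, 3.11, 3.21 and 3.18 with paraoxon, and 3.05, 3.16 and 3.19 with mipafox. The 3 treatments overlapped fully. The range over all arrays was 0.163, and 0.0515% of tested probes had a smaller one. The log2 fold change was 0.01 for paraoxon (SE 0.12, 95% interval -0.26 to 0.28, adjusted p = 0.984) and -0.02 for mipafox (95% interval -0.30 to 0.25, adjusted p = 0.99). The CTGF intervals are the wider of the pair. For paraoxon the sign of the CYR61 value turned with quantile normalization, normexp background correction, array weights and slide as a block, and without control A or paraoxon B, to -0.11 at the lowest.

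**Figure D1:**
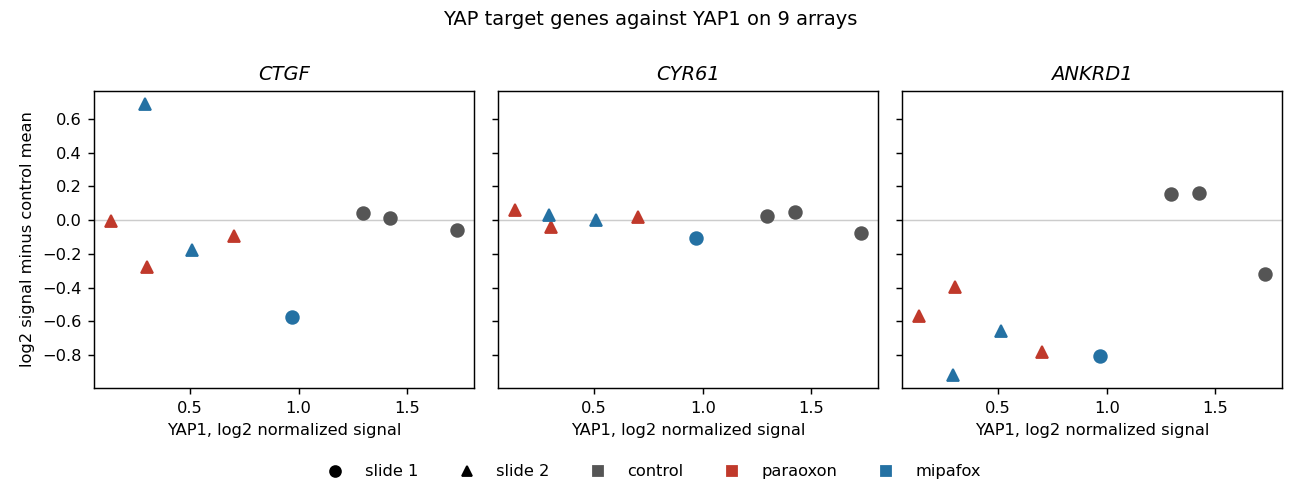
Log2 signal of the target genes CTGF, CYR61 and ANKRD1 minus their control mean (vertical axis) against the normalized log2 signal of YAP1 (horizontal axis) on the 9 arrays, with colour for treatment and symbol for slide. CTGF is lowest on mipafox A and highest on mipafox C, CYR61 stays within 0.163, and the ANKRD1 points of the 6 exposed arrays lie below the 3 control points.

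TAZ shares the role of YAP1. Its gene WWTR1 read -2.57, -3.11 and -3.06 in control, -3.16, -3.20 and -2.97 with paraoxon, and -3.06, -2.59 and -2.51 with mipafox. Both exposed groups overlapped the control group. Fold changes on the log2 scale were -0.20 for paraoxon (SE 0.20, adjusted p = 0.751 in limma) and 0.19 for mipafox (SE 0.20, adjusted p = 0.933).

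Among the DNA-binding partners, TEAD1 (A_23_P362893, hg19, chr11:12965225-12965284) read 1.27, 1.25 and 1.07 in control, 0.97, 0.92 and 1.34 with paraoxon, and 1.01, 0.89 and 0.50 with mipafox. The mipafox arrays lay below all control arrays, while paraoxon C was the highest of the 9. Its log2 fold change was -0.40 for mipafox (SE 0.18, adjusted p = 0.727) and -0.12 for paraoxon (SE 0.18, adjusted p = 0.845). Groups of 3 that lay wholly below the controls were found for 2 of the 10 probes with mipafox, TEAD1 and LATS1, and for 6.46% of all tested probes.

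TEAD2 and TEAD4, read by the partly alike probes printed above, had no common pattern. TEAD2 read -2.17, -2.70 and -2.42 in control, -2.40, -2.48 and -2.39 with paraoxon, and -3.14, -2.40 and -1.78 with mipafox. TEAD4 read 0.88, 0.51 and 0.63 in control, 0.40, 0.49 and 0.52 with paraoxon, and 0.75, 0.55 and 0.37 with mipafox. Mipafox C gave the highest TEAD2 and the lowest TEAD4 value of the 9 arrays. The paraoxon fold change was 0.01 for TEAD2 (SE 0.30, adjusted p = 0.997) and -0.20 for TEAD4 (SE 0.16, adjusted p = 0.644), and the mipafox values were -0.01 (adjusted p = 0.998) and -0.12 (adjusted p = 0.953).

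TEAD3 (A_23_P82000, hg19, chr6:35441520-35441579) read -0.08, -0.75 and -0.73 in control, -0.55, -0.80 and -0.39 with paraoxon, and -0.43, -0.13 and -0.25 with mipafox. Control A was the highest array and the groups overlapped. Its fold change (log2) was -0.06 for paraoxon (SE 0.21, adjusted p = 0.944) and 0.25 for mipafox (SE 0.21, adjusted p = 0.895).

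Apart from YAP1, the largest differences from control were those of LATS1, a kinase that restrains YAP1. The brighter probe (A_23_P366230, hg19, chr6:149982383-149982442) read -5.18, -5.16 and -4.90 in control, -6.26, -5.62 and -5.76 with paraoxon, and -5.84, -6.16 and -6.27 with mipafox. All 6 exposed arrays lay below all control arrays, which held for 1 of the 10 probes and for 3.97% of all tested probes. For paraoxon alone the count was also 1 of 10, beside 11.1% of all. The log2 fold change was -0.80 for paraoxon (SE 0.20, adjusted p = 0.126 in limma) and -1.01 for mipafox (SE 0.20, adjusted p = 0.295), neither past the adjusted limit. The signal was dim, between 28.6 and 48.2 before scaling in control and between 14.0 and 24.6 in the exposed arrays. With normexp background correction the fold changes were -0.15 and -0.10, and in the authors' processed values -0.14 and -0.20. Normexp changes the background correction, and the authors' values may differ from the main ones in other steps too.

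The other LATS1 probe (A_33_P3233764, hg19, chr6:150022916-150022975) was well above background on 6 of 9 arrays. Only in control was this so on all 3 arrays. The probe thus passed the filter on dim probes through control alone, which by itself favours lower values with the OPs. It read -5.73, -6.04 and -6.47 in control, -6.38, -7.01 and -7.90 with paraoxon, and -6.21, -6.28 and -6.46 with mipafox. The paraoxon and control arrays overlapped, and paraoxon B and C were among the 3 arrays not well above background. Given as a description because of that filter, its fold change was -1.02 for paraoxon (SE 0.35, adjusted p = 0.244 in limma) and -0.24 for mipafox (SE 0.35, adjusted p = 0.962). The 2 probes of LATS1 thus differed in which OP gave the larger value.

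LATS2 (A_24_P70002, hg19, chr13:21547929-21547988), kinase and target at once, read -0.91, -0.66 and -0.47 in control, -0.76, -0.44 and -1.03 with paraoxon, and -1.32, -1.18 and -0.46 with mipafox. The groups overlapped, and mipafox A and B were the lowest arrays. On the log2 scale the fold change was -0.07 for paraoxon (SE 0.25, adjusted p = 0.952) and -0.31 for mipafox (SE 0.25, adjusted p = 0.891).

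**Figure D2:**
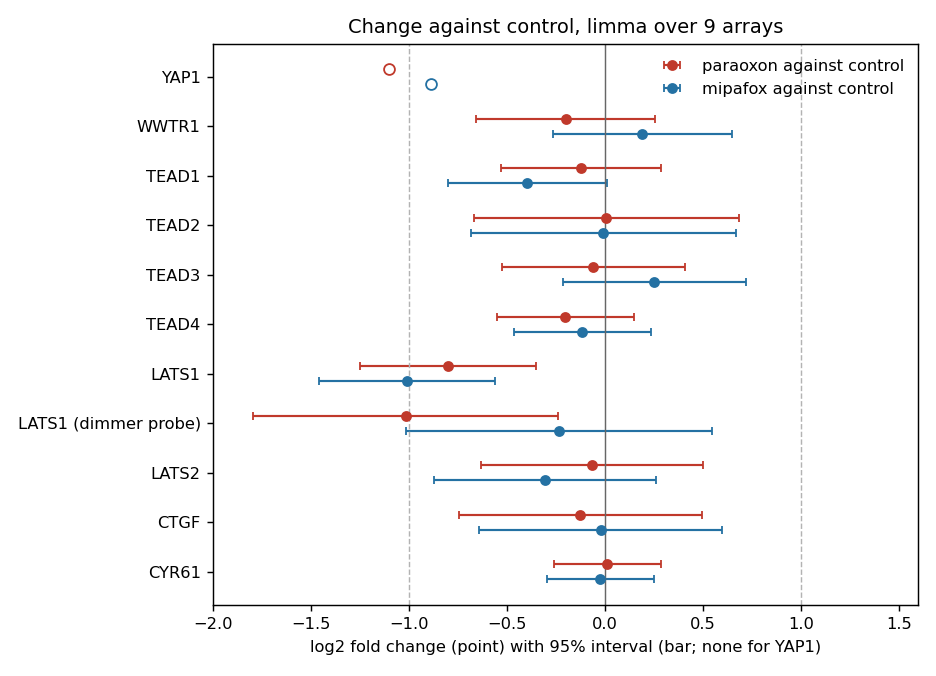
Log2 fold change against control with its 95% interval (horizontal axis) for the 11 probes (vertical axis), from limma over 9 arrays, red for paraoxon and blue for mipafox, dashed lines at 1 and -1. YAP1 is shown as open points without an interval, as a description. The values of the dimmer LATS1 probe are also a description, because of its filter. The intervals of the brighter LATS1 probe lie below 0 in both comparisons, and those of CTGF and CYR61 include 0.

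The direct comparison of the exposed groups leaves out the control arrays. The doses, 1 μM paraoxon and 5 μM mipafox, differ, and the groups share slide 2 for 5 of the 6 arrays. Every one of the 10 probes had an adjusted p of 0.998. The log2 difference paraoxon minus mipafox lay between -0.78 for the dimmer LATS1 probe (SE 0.35) and 0.27 for TEAD1 (SE 0.18). Within slide 2 alone, paraoxon minus mipafox B and C lay between -0.73 for the dimmer LATS1 probe and 0.38 for TEAD1. It was -0.56 for WWTR1, -0.39 for TEAD3, -0.38 for CTGF and -0.0028 for CYR61.

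Slides were also set beside each of the other genes. Within slide 1, mipafox A minus the control mean was -0.76 for the brighter LATS1 probe, -0.71 for TEAD2, -0.64 for LATS2, -0.57 for CTGF and -0.10 for CYR61. It was -0.19 for TEAD1, -0.15 for WWTR1, -0.13 for the dimmer LATS1 probe, 0.08 for TEAD4 and 0.09 for TEAD3. The median over all tested probes was 0.06. Between slides, mipafox B and C minus mipafox A was 1.05 for TEAD2, 0.83 for CTGF, 0.52 for WWTR1 and 0.50 for LATS2. It was 0.24 for TEAD3, 0.12 for CYR61, -0.16 for the dimmer LATS1 probe, -0.29 for TEAD4, -0.31 for TEAD1 and -0.37 for the brighter LATS1 probe. The median over all tested probes was -0.08. For TEAD2, CTGF, WWTR1, LATS2, TEAD4 and CYR61 mipafox therefore differed between its own arrays by more than its mean differed from control. The part of slide in that was not tested.

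Likeness to YAP1 over the 9 arrays was described by correlation, across arrays that share treatment, slide and scaling. Pearson's r was -0.17 for CTGF (Spearman's rho 0) and -0.31 for CYR61 (rho -0.37), where the median over all tested probes was 0.05. It was 0.80 for the brighter LATS1 probe (rho 0.67), 0.75 for TEAD4 (rho 0.75) and 0.66 for TEAD1 (rho 0.75), and 3.25%, 4.85% and 8.75% of tested probes had an r as high or higher. After each treatment's mean was removed, r was 0.89 for TEAD1, 0.77 for TEAD4, 0.24 for the brighter LATS1 probe, -0.66 for CTGF, -0.72 for CYR61 and -0.89 for LATS2. Without that step r was 0.49 for the dimmer LATS1 probe, -0.16 for LATS2, -0.22 for TEAD2, 0.09 for TEAD3 and 0.10 for WWTR1. Deviations from the treatment means also correlated between arrays over all tested probes, at 0.66 for paraoxon B with mipafox C and -0.59 for control A with paraoxon B. The share of all tested probes with within-treatment r values as far from 0 was not computed, so those values do not single out these genes.

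The named genes with the highest r were HSP90AA1 (0.986), a cytosolic chaperone, ATP7A (0.979), a copper transporter, RNF168 (0.978), a ubiquitin ligase of the DNA damage response, ELK4 (0.976), an ETS factor, and TRIM34 (0.976). Their log2 fold changes with paraoxon were -0.54, -0.84, -0.61, -0.93 and -0.67, and with mipafox -0.43, -0.87, -0.50, -0.84 and -0.67. An r of 0.9 or more was shared by 188 of 29109 tested probes with values on all arrays (0.646%). They were picked for this likeness, so that their fold changes are a description.

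Other genes of the pathway were taken as lists and described by counts. Of 40 regulators of the Hippo cascade 38 were tested, and 0 had an adjusted p under 0.05 in limma with either OP. At an unadjusted p under 0.05, 2 were lower and 3 higher with paraoxon, where 6.02% of all tested probes were lower and 7.31% higher. With mipafox 2 were lower and 1 higher, where 4% and 2.96% of all were. The median log2 fold change was 0.07 and 0.06, against 0.01 and 0.00 over all tested probes. By the naming rule AMOT, a scaffold that binds YAP1, is given for its dim probe A_33_P3347397 (3 of 9 arrays well above background). The mipafox value of this probe was -1.22 (SE 0.39, adjusted p = 0.545), while the brighter AMOT probe gave 0.07. The dim probe passed the filter on dim probes through a single treatment. That favours lower values in the other treatments, so -1.22 is a description.

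Named after their values were seen, the lower regulators were MOB1A, the adaptor that activates LATS kinases, and TAOK1, a kinase upstream of the cascade. By the brighter of its 2 tested probes, MOB1A read -0.55, -0.56 and -0.76 in control, -1.49, -1.36 and -1.50 with paraoxon, and -1.07, -1.68 and -1.76 with mipafox. Its exposed arrays all lay below its control arrays, as held for TAOK1 and PARD3 of the same list and for 3.97% of all tested probes. The MOB1A fold changes were -0.83 (SE 0.19, adjusted p = 0.11) and -0.88 (SE 0.19, adjusted p = 0.34). They are those of the brighter probe, and the other MOB1A probe is not given here. TAOK1 had values of -0.72 (SE 0.21, adjusted p = 0.177) and -0.76 (SE 0.21, adjusted p = 0.451). RASSF6, higher, had values of 0.87 (SE 0.17, adjusted p = 0.0807) and 0.54 (SE 0.17, adjusted p = 0.537). The core kinases STK3 and STK4 had paraoxon values of 0.07 and 0.03 and mipafox values of -0.09 and 0.09. Mipafox B and C lay below mipafox A for MOB1A (difference -0.65), as for YAP1. The paralog MOB1B, by the brightest of its 3 tested probes, had values of 0.70 with paraoxon (SE 0.71, adjusted p = 0.756) and -0.19 with mipafox (SE 0.71, adjusted p = 0.987).

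Of 16 nuclear partners and competitors of YAP1 and TEAD, 14 were tested and 0 had an adjusted p under 0.05. At an unadjusted p under 0.05, 1 was lower and 2 higher with paraoxon, and 0 lower and 1 higher with mipafox (of all tested probes 6.02% lower and 7.31% higher, then 4% and 2.96%). The medians were 0.15 and 0.04, against 0.01 and 0.00 over all tested probes. VGLL1, a TEAD-binding cofactor named by the rule, was dim (5 of 9 arrays well above background). It passed the filter on dim probes through a single treatment. That favours lower values in the other treatments, so its values are a description. Its paraoxon value was -1.05 (SE 0.21, adjusted p = 0.079 in limma) and its mipafox value -0.32. VGLL3 is of the same family and was named after its values were seen. The brighter of its 2 tested probes had values of 0.81 (SE 0.19, adjusted p = 0.117) and 0.65 (SE 0.19, adjusted p = 0.492). The other VGLL3 probe is not given here.

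The target signature of YAP and TAZ, without CTGF, CYR61 and LATS2, holds 19 genes, of which 15 were tested. In each comparison 12 of the 15 had a log2 fold change below 0, where 48.1% of all tested probes did with paraoxon and 49.8% with mipafox. The comparisons share their controls and the genes are not independent replicates. Within slide 1, mipafox A minus the control mean lay on both sides of 0 in this list, from -1.84 for TGFB2 to 0.23 for DOCK5. TGFB2 was well above background on 7 of 9 arrays only. The treatment that brought it through the filter on dim probes is not given here, so its values are a description. The median was -0.11 in both, and 0 genes had an adjusted p under 0.05. At an unadjusted p under 0.05, 3 were lower with paraoxon (PTPN14, IGFBP3 and ANKRD1) and 1 with mipafox (ANKRD1), and 0 were higher, beside the same shares of all probes (6.02% and 4% lower, 7.31% and 2.96% higher). Markers of mesoderm and fibroblast-like cells also lay mostly below 0, 5 of 6 tested with paraoxon (median -0.23) and 4 of 6 with mipafox (median -0.13), none past an unadjusted p under 0.05. Their summed level, on the linear scale relative to the 75th percentile, was 5.26 to 5.59 in control, 4.83 to 5.46 with paraoxon and 4.87 to 6.18 with mipafox. MIXL1, 1 of the 6, was well above background on 6 of 9 arrays only, so its values are a description. DCN, POSTN and T did not pass the filter on dim probes, and the part of such cells in the target genes' values was not tested.

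ANKRD1, a cardiac and muscle ankyrin repeat protein gene widely used as a YAP readout, was named after its values were seen. It read -3.42, -2.94 and -2.95 in control, -3.50, -3.67 and -3.89 with paraoxon, and -3.91, -3.76 and -4.02 with mipafox. All exposed arrays lay below all control arrays, control A closest to them, as held for 3.97% of all tested probes. In the same list this also held for PTPN14, F3 and IGFBP3. The log2 fold change was -0.58 for paraoxon (SE 0.18, adjusted p = 0.199) and -0.79 for mipafox (SE 0.18, adjusted p = 0.344). Within slide 1, mipafox A lay below the control mean (difference -0.81), and mipafox B and C differed from mipafox A by 0.02. PTPN14, a phosphatase gene, had a paraoxon value of -0.52 (SE 0.17, adjusted p = 0.227), and IGFBP3, an insulin-like growth factor binding protein gene, one of -0.61 (SE 0.21, adjusted p = 0.261).

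**Figure D3:**
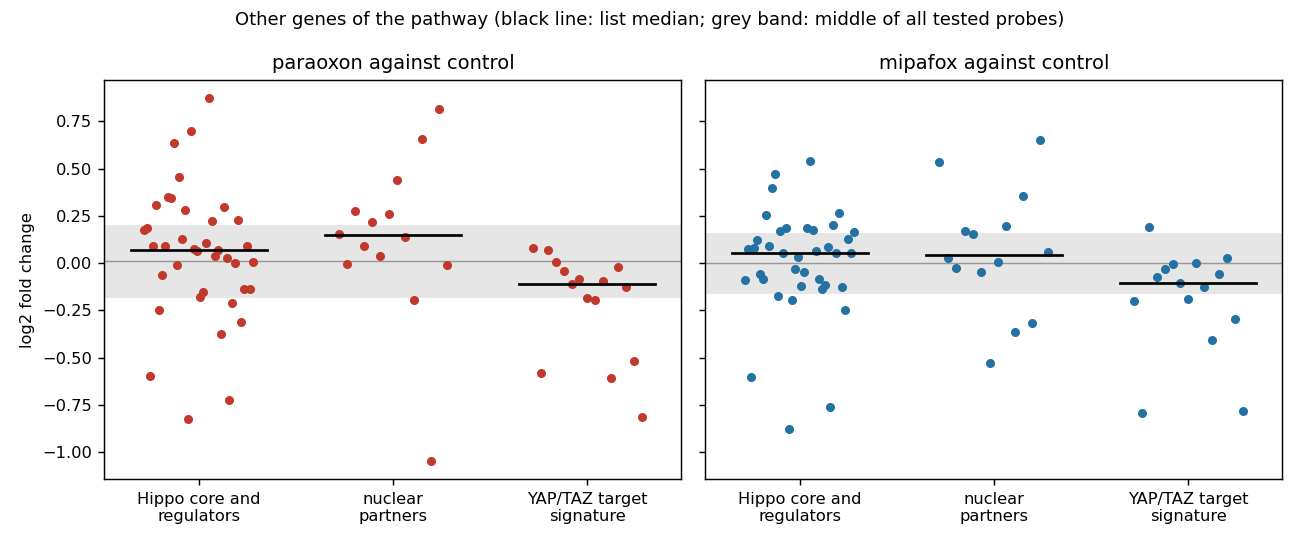
Log2 fold change against control (vertical axis) of each tested gene of the 3 pathway lists (horizontal axis) with paraoxon (left) and mipafox (right), black lines at the list medians and a grey band over the middle of all tested probes, from the lower to the upper quartile. The regulators scatter on both sides of 0, and 12 of 15 target genes lie below 0 in each panel.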

How the data were processed

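One-colour Agilent arrays, 9 in all, measured the RNA. Scanner output of Agilent Feature Extraction 10.5.1.1 (version per the submitters' processing notes) was deposited for each, and its processed signal is a linear intensity. A second deposited file holds the log2 values the authors made from it, used as an alternative. The paper's methods name an Agilent preprocessing package and limma, and do not state the background correction.

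Here log2 of the processed signal, less the 75th percentile of its array, was averaged over a probe's spots, without control or outlier-marked spots. A probe was tested where some treatment had it well above background on all 3 arrays and no treatment had fewer than 2 values. limma 3.58.1 in R 4.3.3 fitted 1 mean per treatment over 9 arrays, with Benjamini-Hochberg adjustment. The scripts were tested on simulated data. The number of arrays limits the precision, and with 3 against 3 arrays an exact two-sided permutation test cannot go below 0.1, so none was used. Counts of called genes leave out YAP1. All 10 genes were named by their brightest probe, and a further gene where a list's probe lay beyond 1 in log2 fold change at an unadjusted p under 0.05. The genes, lists and tests were chosen with earlier results of these data known. Alternatives, 14 in all, covered scaling, background, the authors' values, dim-probe filters, slide or letter as a block, arrays in the fit, array weights, variance model, outlier flags, threshold, probe and each array left out. Probe coordinates are those of the files (hg19), and promoters are from a table of RefSeq promoters (GRCh38.p14), matched for 7 of the 10 genes. Figures were drawn with matplotlib 3.10.9.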

Additional observations from a re-analysis of the deposited data

How the results depend on the processing

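By direction and threshold most values held: of the recomputed values 694 kept their direction and their side of the threshold (or moved within the spread), 47 changed sign, 10 passed the threshold and 8 moved. Apart from YAP1 the size of a gene's value did not enter, and no probe had passed in the main fit. Paraoxon values of -0.14 for the brighter LATS1 probe (authors' values) and -0.95 for CTGF (slide as a block) thus count as held. The count of called genes other than YAP1 was 0 in every comparison and under each alternative except these: with array weights, and at an unadjusted p under 0.05, it was 1 for paraoxon and 1 for mipafox, in each case LATS1. With array weights this was the brighter LATS1 probe for both OPs. At the unadjusted limit it was the dimmer probe for paraoxon, a description because of its filter, and the brighter for mipafox. With array weights limma's adjusted p for the brighter LATS1 probe was 0.00409 and 0.00682, and for mipafox WWTR1 (0.43), TEAD3 (0.54) and LATS2 (-0.52) also passed an adjusted p under 0.05 below the fold change limit. The weights were estimated probe by probe and depended on the order of the probes: over all tested probes they called 671 and 800, and 586 and 877 with the order reversed, a setting chosen after seeing the data, which kept the count of 1 for each OP. Over all tested probes the 2 treatments alone called 276 for paraoxon, and leaving out mipafox A called 275 and 78, against 0. With slide as a block the YAP1 difference was -0.53 for paraoxon and -0.51 for mipafox, against -1.10 and -0.89. When single arrays were left out, YAP1 ranged over -1.26 to -0.98 and -1.08 to -0.74.

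Signs turned only for values that did not pass the test. With slide as a block the paraoxon value was 0.19 for TEAD1, -1.04 for TEAD2, 0.0891 for TEAD4 and -0.11 for CYR61, the mipafox value -0.15 for WWTR1 and 0.0788 for TEAD4, and paraoxon minus mipafox -0.33 for TEAD2, 0.0103 for TEAD4 and -0.0028 for CYR61. Quantile normalization gave paraoxon values of -0.0001 for TEAD2 and -0.0092 for CYR61. With normexp CYR61 was -0.0213 for paraoxon, TEAD2 0.17 and the dimmer LATS1 probe 0.16 for mipafox, and TEAD2 -0.0246 and LATS1 -0.0423 for paraoxon minus mipafox, where the mean over probes gave LATS1 -0.29. The authors' values gave 0.0903 for LATS2 (paraoxon), and 0.12 for TEAD2 and 0.0079 for CTGF (mipafox). Array weights gave 0.13 for TEAD3 and -0.0546 for CYR61 (paraoxon), 0.16 for TEAD2 (mipafox) and -0.011 for CYR61 (paraoxon minus mipafox), and with the order reversed 0.11, -0.0476, 0.15 and -0.008. Leaving out single arrays gave, for paraoxon, -0.13 to 0.13 for TEAD2, -0.18 to 0.16 for TEAD3, -0.22 to 0.0765 for LATS2 and -0.0246 to 0.0395 for CYR61. For mipafox it gave -0.34 to 0.34 for TEAD2, -0.38 to 0.25 for CTGF and -0.0615 to 0.0152 for CYR61. For paraoxon minus mipafox it gave -0.33 to 0.35 for TEAD2, -0.18 to 0.0103 for TEAD4, -0.38 to 0.25 for CTGF and -0.0028 to 0.0646 for CYR61. The cause was not tested.

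Same-letter deviations correlated between -0.60 and 0.57 over 9 pairs, 5 of them above 0.1. Pairs of different letters reached 0.66, so these values do not settle whether the letters A to C pair the arrays. With the replicate block 0 of these genes were called, and YAP1 stayed at -1.10 for paraoxon. Dim signal over background limits both LATS1 probes.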
